A study of Homo sapiens and Mus musculus with 20 samples.

Results

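Chromatin accessibility was examined at 9 genes of the AP-1 family, FOS, FOSB, FOSL1, FOSL2, JUN, JUNB, JUND, ATF3 and BATF3, in SW480 cells treated with a short-chain fatty acid. SW480 is an established human colorectal adenocarcinoma line, and accessibility was measured by ATAC-seq with the Omni-ATAC protocol on 50000 cells per reaction. Every region of open chromatin that lay in the body of one of these genes or within 20 kb of it was taken, with gene positions from GENCODE on the human assembly GRCh38. The study comprised 12 SW480 libraries in 2 experiments, each with its own untreated cells and with a different leading number in its sample descriptions. In the NaPr experiment, 3 libraries came from cells given 10 mM sodium propionate and 3 from untreated cells. In the NaBu experiment, 3 libraries came from cells given 1 mM sodium butyrate and 3 from untreated cells. All cells grew in medium with 10% fetal bovine serum and were exposed for 12 to 16 h. The doses differ, so the 2 experiments are given side by side and were not tested against each other.

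Peaks that overlapped were merged over the 12 libraries, which gave 252173 regions genome-wide, and the 167303 of them with a peak in at least 2 libraries were ranked. The 9 gene windows held 141 merged regions, of which 120 were ranked and 21 had a peak in 1 library only. The rank of a region is the percentage of ranked regions with a weaker peak (by the peak caller's −log10 p), or none, in the same library. A rank of 100 would be the strongest region and 0 means no peak in that library's list. All regions without a peak count as weaker, so even the weakest listed peak ranks well above 0. Gaining or losing a weak peak therefore shifts a library's rank by many points. A change is the mean rank of the 3 treated libraries minus that of the 3 untreated ones, in percentile points, and a region counts as higher or lower where limma, fitted to all regions tested genome-wide, gave a Benjamini-Hochberg adjusted p below 0.05. The ranked regions divide into 22 promoter regions (within 1 kb of an annotated start of the same gene), 21 neighbour promoters (within 1 kb of the start of another protein-coding gene in the window) and 77 distal regions. FOSL1 and FOSL2 had 21 ranked regions each, JUNB 16, FOSB and ATF3 14 each, FOS 11, JUND 9, JUN 8 and BATF3 6, and no region belonged to 2 of the genes. The labels do not say that replicates were separate cultures, so p-values measure only the spread between these libraries.

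AP-1 is a dimer of basic leucine zipper proteins: FOS proteins pair with JUN proteins, JUN proteins also pair with each other, and ATF and BATF proteins join as further partners. The dimer binds the sequence TGAGTCA, read as TGACTCA on the other strand, which is among the commonest motifs in the distal open chromatin of epithelial cells. Several of the genes, FOS, FOSB, JUN, JUNB and ATF3 among them, are immediate early genes that growth factors and stress induce within minutes, and FOSL1, which encodes FRA-1, is a known target of AP-1 itself. Propionate and butyrate are bacterial fermentation products of the colon and inhibit histone deacetylases.

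The libraries differed in depth. The background recovered from the lists, in reads piled up at a typical position, ran from 0.936 to 2.35 in the NaPr experiment, where both replicate 1 libraries were the shallowest, and from 2.11 to 3.03 in the NaBu experiment. For NaPr it was 0.936, 2.35 and 2.02 in the untreated and 0.938, 1.27 and 1.77 in the treated libraries, so the 2 deepest were untreated. Each list was numbered to 300000 peaks, and its weakest peak had a −log10 p between 3.37 and 9.38, so a rank of 0 means only that no peak passed that list's own limit. Of 9 markers of the colorectal epithelium, EPCAM, KRT8, KRT18, CDH1, VIL1, CDX2 and CLDN4 had a promoter peak in 12 of 12 libraries, KRT20 in 4 and CDX1 in 0. Among the leukocyte markers given here PTPRC and CD3E had none and CD14 had one in all 12, and of the fibroblast and endothelial markers COL1A1, PDGFRB, THY1 and PECAM1 had one in all 12, VWF in 6, and DCN and CDH5 in 1.

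Each of the 9 genes had an open promoter in every library. The highest promoter region of each gene, called the main promoter region here, held a peak in all 12 libraries, and its lowest rank anywhere was 63.8. By rank, FOS and JUND had lower main promoter regions after NaBu, and the other 7 were not past the threshold in either experiment. On recovered read pileup scaled to the background, those of FOSB, FOSL1, FOSL2, JUNB and BATF3 were lower after NaBu as well, by −0.22, −0.30, −0.80, −0.42 and −0.23 on the log2 scale (limma adjusted p = 0.0368, 0.0298, 0.000292, 0.000336 and 0.0333). On pileup scaled to the median region these 5 were again lower after NaBu, and those of FOS, JUNB and ATF3 were lower after NaPr, which none was on pileup scaled to the background. After NaPr other settings moved single promoters past the threshold: those of FOSB and JUNB with all 12 libraries in 1 fit (limma adjusted p = 0.0335 and 0.0275) and that of FOSL1 with regions built from summit windows (limma adjusted p = 0.0154), all of them lower. Most calls lay in distal regions, as did most tested regions, with 59 of 94 for NaPr and 63 of 103 for NaBu. After NaPr 9 distal regions were higher and 3 lower, and after NaBu 9 were higher and 10 lower. The other lower calls were 1 promoter region after NaPr, and 6 promoter and 4 neighbour promoter regions after NaBu.

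**Figure D1:**
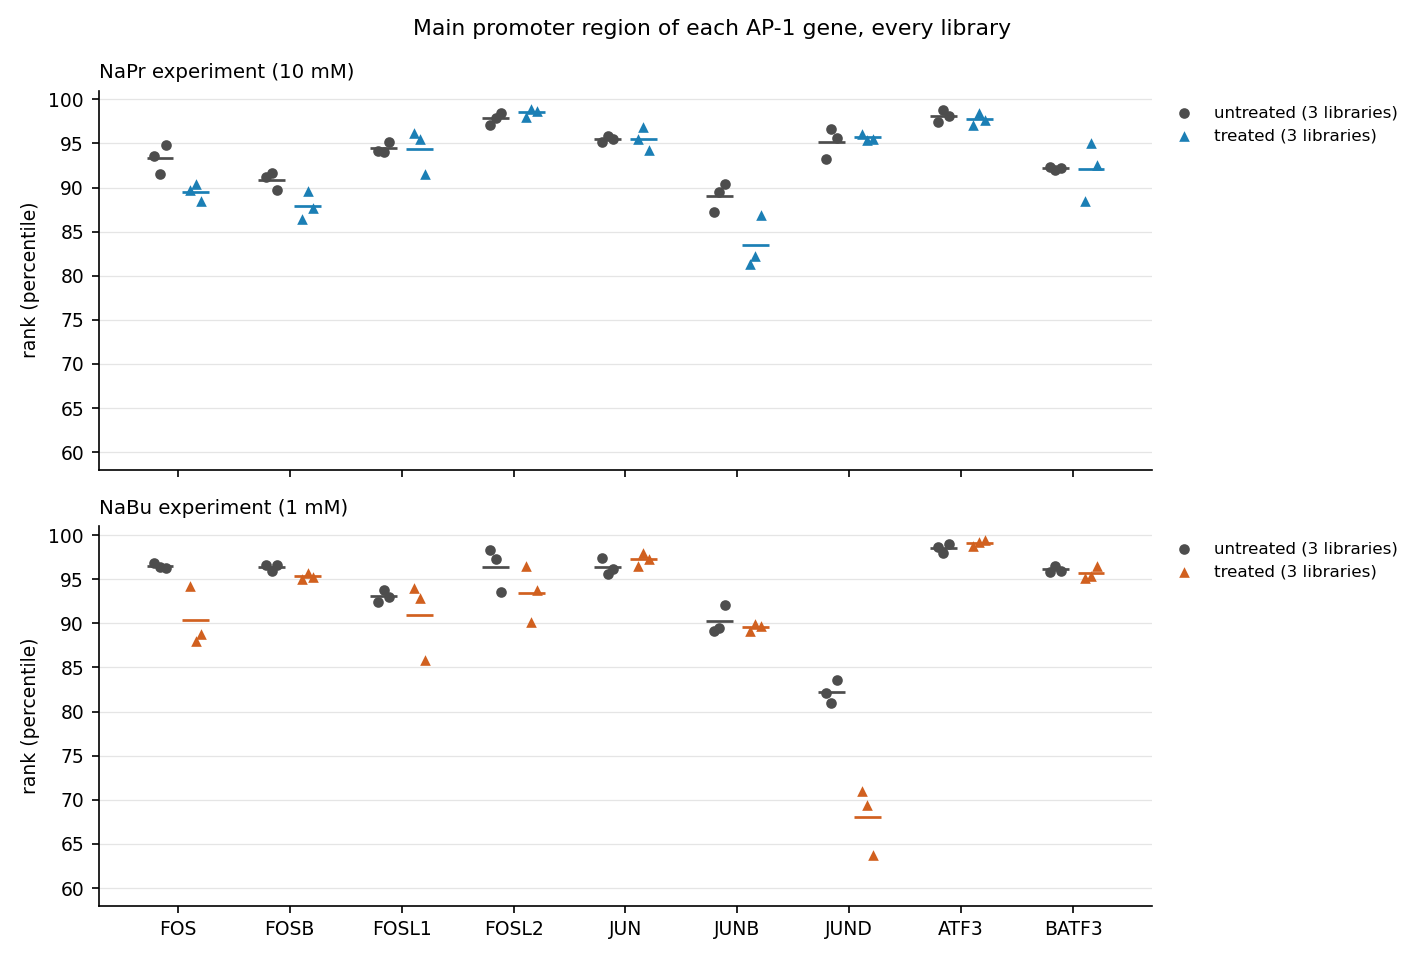
Rank (percentile, vertical axis, which does not start at 0) of the main promoter region of each of the 9 genes in every library, with the NaPr experiment above and the NaBu experiment below; circles are untreated libraries, triangles treated libraries and short lines the means of 3. JUND in the NaBu experiment stands apart, with untreated libraries at 81.0 to 83.6 and treated libraries at 63.8 to 71.0.

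The sequences that carry these results are shown first, in GRCh38 and on the plus strand, as 50 bases on either side of the strongest summit of the region. The FOS window is the upstream part of its promoter and holds the CArG box, the binding site of serum response factor, 305 to 314 bases before the FOS start. The other 4 are the FOS, FOSB and FOSL2 regions that were higher in both experiments and the FOSL1 region that was lower in both. Capitals mark the CArG box and, in the second sequence, a GC box (GGGCGG, here on the other strand).
FOS upstream region, chr14:75278444-75278544: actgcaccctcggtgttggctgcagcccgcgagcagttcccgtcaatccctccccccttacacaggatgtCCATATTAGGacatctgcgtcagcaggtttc
FOS downstream region, chr14:75283413-75283513: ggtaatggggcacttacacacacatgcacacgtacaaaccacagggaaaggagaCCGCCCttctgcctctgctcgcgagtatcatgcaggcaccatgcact
FOSB downstream region, chr19:45484504-45484604: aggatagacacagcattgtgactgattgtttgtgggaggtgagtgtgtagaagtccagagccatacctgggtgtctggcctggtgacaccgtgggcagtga
FOSL2 intron region, chr2:28406819-28406919: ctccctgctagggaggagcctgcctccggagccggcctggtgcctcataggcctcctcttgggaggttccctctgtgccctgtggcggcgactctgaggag
FOSL1 upstream region, chr11:65911914-65912014: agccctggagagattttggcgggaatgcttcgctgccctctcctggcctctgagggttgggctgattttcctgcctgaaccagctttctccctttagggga

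None of the 4 windows outside the FOS promoter holds TGAGTCA or its complement. The JUN and BATF3 regions that by rank were called higher after NaPr and not after NaBu do hold it and are shown with the motif in capitals. In the JUN window the motif lies 39 bases from the summit and in the BATF3 window 23 bases from it.
JUN downstream region, chr1:58780076-58780176: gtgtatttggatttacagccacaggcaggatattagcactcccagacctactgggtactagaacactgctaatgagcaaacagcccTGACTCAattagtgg
BATF3 downstream region, chr1:212671791-212671891: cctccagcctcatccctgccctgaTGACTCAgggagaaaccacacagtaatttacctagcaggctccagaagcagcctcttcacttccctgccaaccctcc

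The bases upstream of the start were read from RefSeq (GRCh38.p14) for JUND, whose promoter was lower after NaBu, and for JUN, whose promoter was not past the threshold. Both are given on the minus strand, the strand of the gene, and end at the base before the RefSeq start. Capitals mark the cyclic AMP response element (TGACGTCA) in JUND, which begins 200 bases before the start, the JUN-type element (TGACATCA) in JUN, which begins 67 bases before it, and GC boxes in both. FOSL1 and BATF3 had no entry in the RefSeq promoter table.
JUND upstream, chr19:18281623-18281872: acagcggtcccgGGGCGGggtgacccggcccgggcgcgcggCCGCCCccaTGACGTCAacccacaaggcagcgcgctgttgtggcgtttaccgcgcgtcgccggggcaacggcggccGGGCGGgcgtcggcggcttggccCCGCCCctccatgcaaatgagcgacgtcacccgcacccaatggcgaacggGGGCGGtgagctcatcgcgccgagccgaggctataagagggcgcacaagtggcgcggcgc
JUN upstream, chr1:58784048-58784297: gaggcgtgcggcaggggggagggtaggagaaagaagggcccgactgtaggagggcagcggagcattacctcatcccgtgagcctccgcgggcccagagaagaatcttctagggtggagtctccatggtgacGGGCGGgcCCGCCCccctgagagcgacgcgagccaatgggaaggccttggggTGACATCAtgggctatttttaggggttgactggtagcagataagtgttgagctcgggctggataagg

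The first question was whether propionate changed accessibility at these genes. Of 94 regions tested, 9 were higher and 4 lower, or 13.8%, against 9.10% of 124067 regions called genome-wide (5.03% higher and 4.07% lower). All treated libraries were above all untreated ones at 17 member regions and below them at 18, so that the groups did not overlap, against 28.2% genome-wide (14.4% above and 13.8% below). Of 16 promoter regions tested 0 were higher and 1 lower, where limma called 2.55% of promoter regions genome-wide higher and 7.41% lower. No promoter region at these genes had all treated libraries above all untreated ones, and the 5 with an unadjusted p below 0.05 were all lower. Of 19 neighbour promoters limma called 0 in either direction, with 5 at an unadjusted p below 0.05. Of 59 distal regions 9 were higher and 3 lower, where 5.65% of regions away from protein-coding starts were higher genome-wide and 3.24% lower. The median change over the distal member regions was 1.18 points, against 0.708 over all such regions. Of the 9 higher calls 4 lay in regions with a peak in all 6 libraries, while 5 lay in regions with a peak in every treated library and in no untreated one. Such gained regions pass the filter through the treated libraries alone. Of the 116 member regions with a peak in at least 1 of the 6 libraries, gained regions were 4.31% and the 2 that lost their peak were 1.72%, against 1.80% and 0.918% of 202576 such regions genome-wide.

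The NaPr counts rest on all 6 libraries. When any 1 of them was left out, limma called 0 regions in the whole genome, although 25434 to 27378 regions had an unadjusted p below 0.05, and the same held without both shallow replicate 1 libraries. With all 12 SW480 libraries in 1 fit and each NaPr library left out in turn, a choice made after seeing the data, 10 to 14 member regions were higher and 5 to 8 lower. Recovered read pileup was fitted only to regions with a peak in all 6 libraries, so gained and lost regions were not tested on it. By rank, 4 of the higher and 2 of the lower calls lay in such regions. On pileup scaled to the background 11 were higher and 0 lower, and on pileup scaled to the median region 11 were higher and 14 lower. The balance of the directions on pileup thus depended on the scaling.

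The second question was the same for butyrate. Of 103 regions tested, 9 were higher and 20 lower, or 28.2%, a share near the 31.7% of 123730 regions called genome-wide (17.2% higher and 14.5% lower). All treated libraries were above all untreated ones at 17 member regions and below them at 30, where 47.3% of all regions had groups that did not overlap (25.3% above and 22.0% below). Of 22 promoter regions tested 0 were higher and 6 lower, where 9.42% of promoter regions genome-wide were higher and 22.2% lower, and all 7 with an unadjusted p below 0.05 were lower. Of 18 neighbour promoters 0 were higher and 4 lower, and 8 had an unadjusted p below 0.05, all of them lower. Among 63 distal regions 9 were higher and 10 lower, against 19.2% higher and 12.5% lower in all regions away from starts. The median change of the distal member regions was −0.01 points, below the 2.07 points of all such regions. Gained regions numbered 5 and lost regions 3 of the 115 with a peak in at least 1 of the 6 libraries, or 4.35% and 2.61%, where 5.24% and 3.04% of 151213 such regions genome-wide did so. Of the calls, 4 higher and 13 lower ones lay in regions with a peak in all 6 libraries. Here too gained regions pass the filter through the treated libraries alone, and lost ones through the untreated libraries alone. In both kinds the group without a peak is tied at rank 0, so the limma p adds no separate support.

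**Figure D2:**
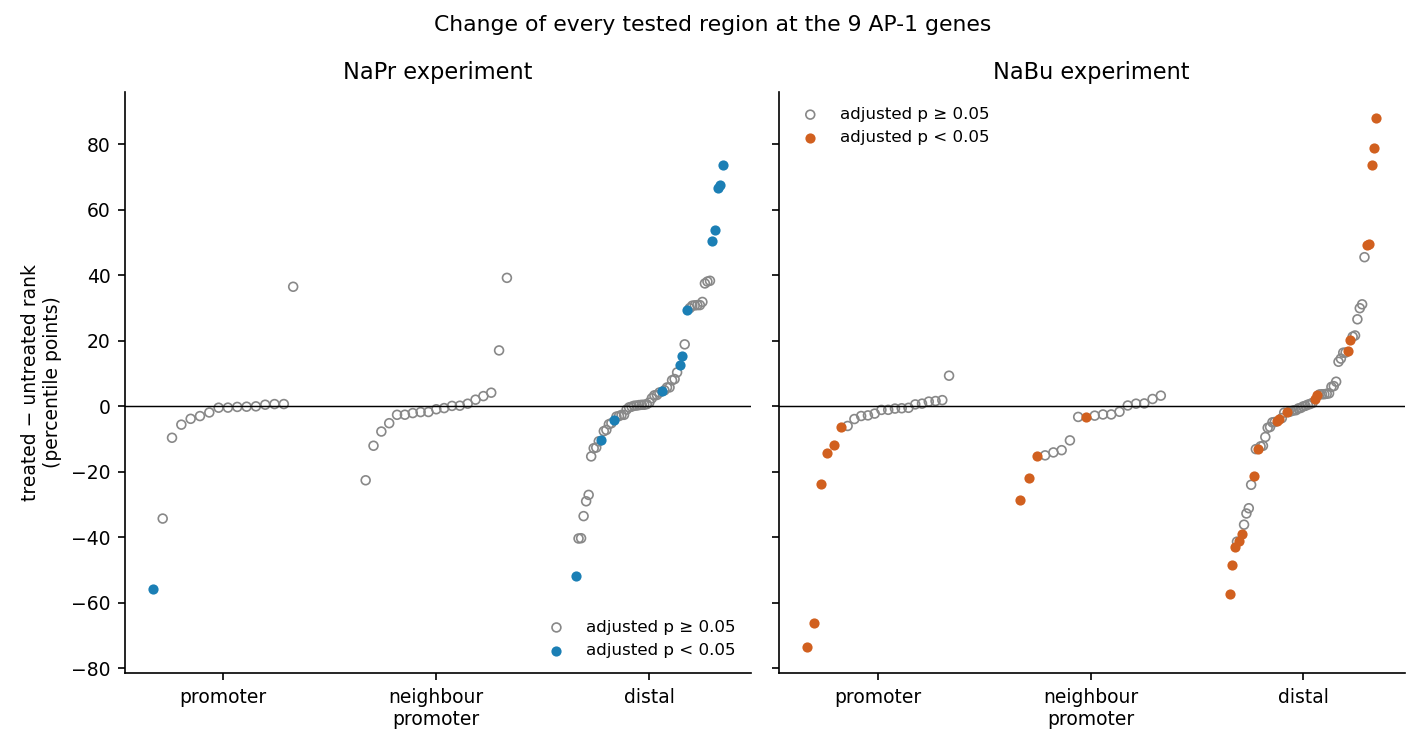
Change in rank (treated minus untreated, percentile points, vertical axis) of every tested region at the 9 genes, by class and sorted by size, with NaPr on the left and NaBu on the right; each point is 1 region and filled points had a limma adjusted p below 0.05. Filled points above 0 occur among the distal regions alone, 9 in each experiment.

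Of 79 member regions tested in both experiments, limma called 3 higher in both, 2 lower in both and 0 in opposite directions. Over all 83651 regions tested in both, 3.18% were higher in both, 2.23% lower in both and 0.177% opposite, so these counts are near the background. The FOS, FOSB and FOSL2 windows each held 1 of the higher regions, and the FOSL1 and FOSL2 windows held the lower ones.

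**Figure D3:**
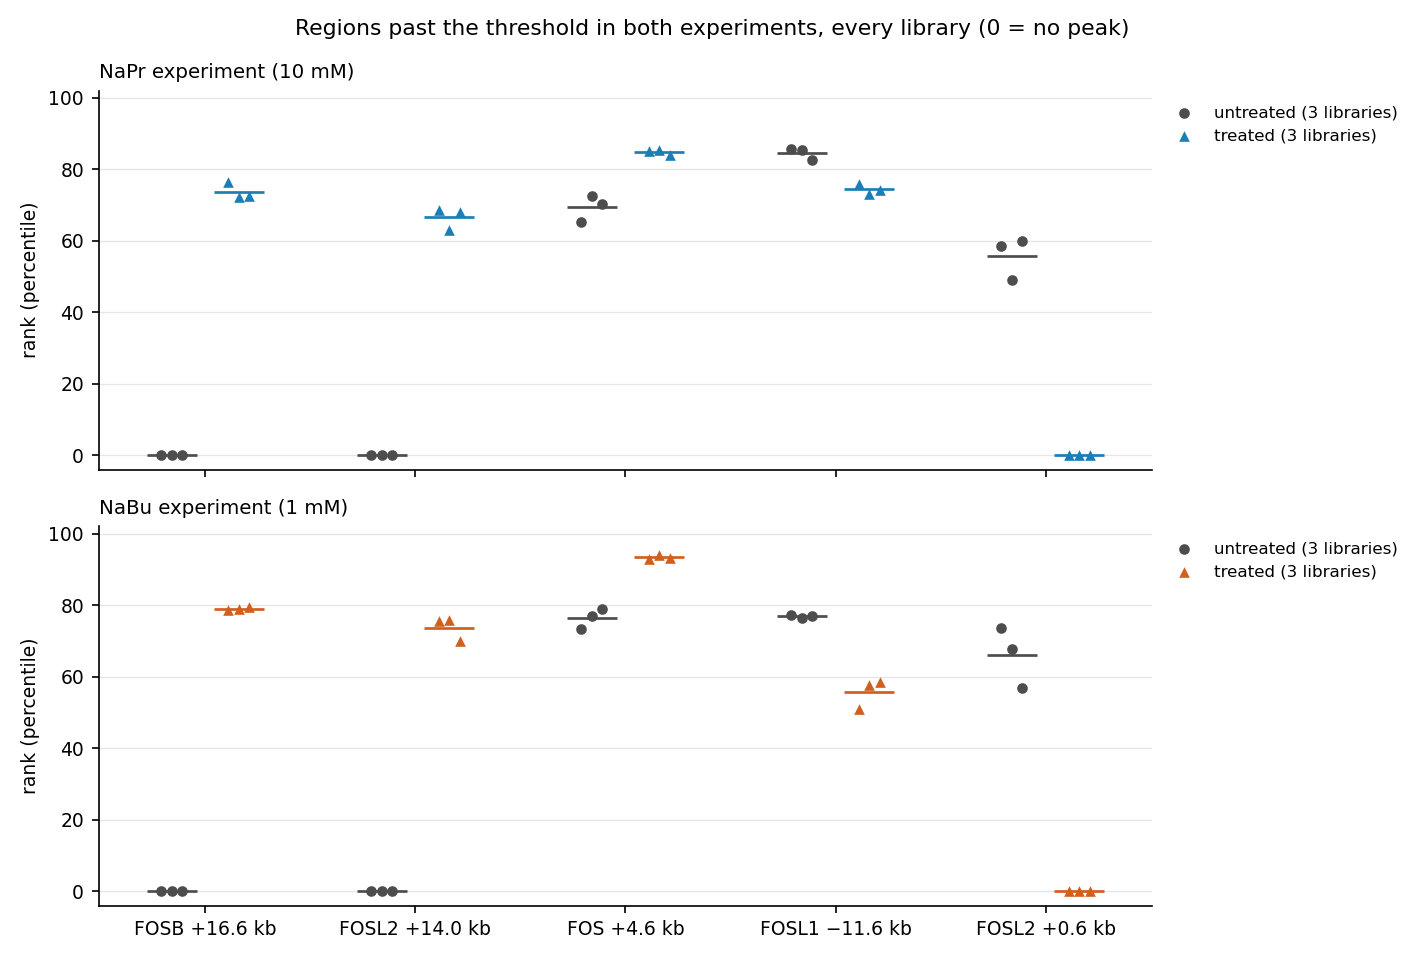
Rank (percentile, vertical axis) in every library of the 5 regions past the threshold in both experiments, named by gene and distance from the start, with NaPr above and NaBu below; circles are untreated libraries, triangles treated libraries, short lines means of 3, and 0 means no peak. The FOSB region at 16.6 kb and the FOSL2 region at 14.0 kb go from no peak in any untreated library to a peak in every treated one.

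FOS, the founding member of the family, lies on chromosome 14 (ENSG00000170345.10, chr14:75278826-75282230, plus strand). Its promoter was split into an upstream region ending before the gene and a region over the start itself. The upstream region (chr14:75276908-75278601), annotated as intergenic and holding the CArG box printed above, ranked at 93.6, 91.5 and 94.8 in the untreated and 89.7, 90.5 and 88.4 in the treated libraries of the NaPr experiment. Every treated library was below every untreated one, but the change of −3.78 points (SE 1.00) was not past the threshold (limma adjusted p = 0.0596), which it passed with a peak required in at least 4 of 6 libraries (adjusted p = 0.0474) or regions merged over the 6 libraries alone (adjusted p = 0.0473). With NaBu it went from 96.8, 96.4 and 96.3 to 94.2, 88.0 and 88.8, a change of −6.18 points (SE 1.61, limma adjusted p = 0.0309). The NaBu call was lost with regions built from summit windows (−2.86 points, adjusted p = 0.0659) without limma's variance trend (adjusted p = 0.0896) and in 5 of the 6 fits that left out 1 library, where the change ran from −8.12 to −5.01 points. The region over the start (chr14:75278715-75279545) kept overlapping groups in both experiments, at 81.6 to 86.4 with NaPr and 91.0 to 95.5 with NaBu, and passed neither test (limma adjusted p = 0.951 and 0.540).

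The FOS region that rose lay 4.63 kb downstream of the start, past the end of the gene, in intergenic sequence (chr14:75282596-75284471). Untreated libraries of the NaPr experiment ranked it at 65.3, 72.5 and 70.3 and treated ones at 85.0, 85.3 and 84.0, a rise of 15.4 points (SE 2.39, limma adjusted p = 0.0229). With NaBu it rose by 17.1 points (SE 1.52, limma adjusted p = 0.000858), from 73.2, 76.9 and 78.8 to 92.8, 94.1 and 93.2. The groups did not overlap in either experiment. On pileup scaled to the background the rise was 1.44 with NaPr and 1.52 with NaBu on the log2 scale (limma adjusted p = 7.19e-07 and 3.69e-09). Ranked by fold enrichment, however, the changes were 10.9 points with NaPr (limma adjusted p = 0.282) and 0.42 points with NaBu (limma adjusted p = 0.931). The cause of that difference was not tested.

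FOSB, a close relative of FOS, lies on chromosome 19 (ENSG00000125740.15, chr19:45467995-45475179, plus strand). Its main promoter region (chr19:45468808-45470769), 1.25 kb inside the gene, ranked at 89.7 to 91.6 in untreated and 86.4 to 89.7 in treated NaPr libraries, and at 95.9 to 96.6 and 95.0 to 95.7 in those of NaBu. All treated libraries were below the untreated ones in both, by 2.94 and 1.06 points, and neither passed the test (limma adjusted p = 0.147 and 0.0678). Around the start lay smaller regions, none of them called. The one 288 bases upstream (chr19:45467402-45467805), which holds the CArG box CCTTATATGG 265 to 274 bases before the start and a cyclic AMP response element, had a peak in 1 of 6 NaPr libraries and in all 6 NaBu libraries, at 71.2 to 80.4. Depth and experiment cannot be told apart in that difference.

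The FOSB window gained 1 region in both experiments, 16.6 kb downstream of the start in intergenic sequence (chr19:45484344-45484817). No untreated library of either experiment listed a peak there, so the region passed the filter through the treated libraries alone. After NaPr the ranks were 76.4, 72.3 and 72.4 (change 73.7 points, SE 10.3, limma adjusted p = 0.0195), and after NaBu they were 78.6, 78.8 and 79.5 (change 79.0 points, SE 4.26, limma adjusted p = 0.000704). The peaks were well above the lists' limits, with a −log10 p of 16.5, 15.4 and 25.0 after NaPr and 48.2, 51.5 and 52.5 after NaBu, and with fold enrichments of 4.61 to 5.41. A neighbouring region 17.5 kb downstream, in an exon of RTN2, was already at 94.0 to 99.8 in all 12 libraries and was not called in either experiment.

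FOSL1 encodes FRA-1, the member most tied to invasive carcinoma cells (ENSG00000175592.9, chr11:65892049-65900573, minus strand). Its main promoter region (chr11:65899141-65900856) had overlapping groups in both experiments, between 85.8 and 96.1, and passed neither test (limma adjusted p = 0.996 for NaPr and 0.445 for NaBu). Around it 4 of 19 tested regions were higher after NaPr, where 5.03% were genome-wide, and 3 of these 4 were gained regions, which pass the filter through the treated libraries alone. After NaBu 0 of 16 were higher by limma, where 17.2% were genome-wide, and 5 had an unadjusted p below 0.05 and all 5 were lower.

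The strongest of these 4 lay 2.82 kb upstream of the start in intergenic sequence (chr11:65902807-65903623). It ranked at 92.9, 94.2 and 94.1 in untreated libraries and 98.5, 98.1 and 98.8 after NaPr (rise of 4.72 points, SE 0.515, limma adjusted p = 0.0146). The NaBu libraries overlapped, at 94.3, 94.7 and 95.5 untreated and 91.3, 94.9 and 93.9 treated (limma adjusted p = 0.273). The other 3 had no peak in any untreated NaPr library. The one at 7.99 kb (chr11:65892330-65892607), in an exon at the 3′ end of FOSL1, was at 61.6, 72.2 and 69.2 after NaPr (limma adjusted p = 0.0237), with fold enrichments of 1.72 to 1.99. That call was lost ranked by fold enrichment (39.7 points, adjusted p = 0.0721) and without the filter (adjusted p = 0.0528). The one at 7.53 kb was at 51, 56 and 54.7 (limma adjusted p = 0.0355), and the one 9.87 kb upstream at 50.2, 56.1 and 45.5 (limma adjusted p = 0.0409). In the NaBu experiment the first was already open without treatment, at 76.8, 79.2 and 82.3, and at 81.2, 82.7 and 85.3 after NaBu, which did not pass the test (limma adjusted p = 0.155). Whether the 2 experiments differ in their response at FOSL1 was not tested.

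Lower regions of FOSL1 lay upstream. The one at 11.6 kb (chr11:65911398-65912235, intergenic) fell by 10.2 points with NaPr, from 85.7, 85.4 and 82.7 to 75.9, 73.2 and 74.2 (SE 1.75, limma adjusted p = 0.0264), and by 21.1 points with NaBu, from 77.2, 76.5 and 77.0 to 51.0, 57.8 and 58.6 (SE 2.89, limma adjusted p = 0.00248). Groups were apart in both. On pileup scaled to the background the NaPr change shrank to −0.12 on the log2 scale (limma adjusted p = 0.802), and ranked by fold enrichment the NaPr call was also lost (adjusted p = 0.148), while the NaBu change remained called on pileup (−0.80). A further region 8.87 kb upstream was lower after NaBu, from 55.2, 50.8 and 47.5 to a single peak at 36.5 (limma adjusted p = 0.0409), a call lost in 5 of the 6 fits that left out 1 library.

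FOSL2, which encodes FRA-2, had calls in both directions (ENSG00000075426.12, chr2:28392448-28417317, plus strand). Its main promoter region (chr2:28392066-28393187) ranked between 97.1 and 98.9 in the NaPr experiment and between 90.1 and 98.4 in the NaBu experiment, with overlapping groups (limma adjusted p = 0.369 and 0.263). On pileup scaled to the background it fell by 0.80 on the log2 scale after NaBu (limma adjusted p = 0.000292), the largest change of a main promoter region on that scale. After NaBu 4 of 7 FOSL2 promoter regions were called lower and 0 higher, where 22.2% of promoter regions genome-wide were lower. The regions at 3.46 and 3.68 kb were not called, with overlapping groups and higher treated means. The one 0.561 kb downstream of the start (chr2:28393340-28393586) lost its peak in both experiments. It ranked at 58.6, 49.2 and 59.9 in untreated NaPr libraries and at 73.7, 67.7 and 56.8 in untreated NaBu libraries, and had no peak in any of the 6 treated libraries (−55.9 points, SE 11.5, limma adjusted p = 0.0343, and −66.1 points, SE 6.2, limma adjusted p = 0.000946). The NaPr call was lost ranked by fold enrichment (adjusted p = 0.0540) and without the filter (adjusted p = 0.0603). In an intron 2.24 kb downstream (chr2:28395052-28395304) a region seen only in the NaBu experiment went from 74.2, 68.0 and 77.9 to no peak (−73.4 points, SE 5.04, limma adjusted p = 0.000704). That call was lost with the 50000 strongest intervals of each list alone (−28.1 points, adjusted p = 0.117). The regions 2.86 kb downstream and 1.13 kb upstream fell less. The downstream one went from 65.5, 72.3 and 64.8 to 41.0, 46.7 and 43.9 after NaBu (limma adjusted p = 0.00488). The upstream one went from 83.5, 86.3 and 85.7 to 73.3, 76.0 and 70.7 after NaBu (limma adjusted p = 0.00319) and from 77.5, 74.5 and 73.3 to 67.7, 63.3 and 65.7 after NaPr, where the groups did not overlap and the test was not passed (limma adjusted p = 0.110).

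Distal regions of FOSL2 rose. An intron region 14.0 kb downstream of the start (chr2:28406562-28407088) had no peak in any of the 6 untreated libraries, and so passed the filter through the treated ones alone. It was at 68.6, 63.1 and 68.0 after NaPr (66.6 points, SE 10.8, limma adjusted p = 0.0238) and at 75.5, 75.8 and 69.9 after NaBu (73.7 points, SE 4.71, limma adjusted p = 0.000704). With the 50000 strongest intervals of each list alone, the NaBu rise was not past the threshold (27.4 points, adjusted p = 0.116), and the NaPr call was lost ranked by fold enrichment (41.4 points, adjusted p = 0.0619) and without the filter (adjusted p = 0.0536). The largest rise at any of the 9 genes was 11.2 kb upstream, in intergenic sequence (chr2:28381210-28382003). It had no peak in the 3 untreated NaBu libraries or in any NaPr library, and ranked at 87.1, 86.7 and 90.0 after NaBu (87.9 points, SE 4.03, limma adjusted p = 0.000704). It thus passed the filter through the treated NaBu libraries alone. Its peaks after NaBu had fold enrichments of 6.48 to 7.38 and a −log10 p of 84.3, 85.7 and 109, far from the limit of the lists. This region is printed for its contrast between the experiments, with no capitals because no motif searched for lies in it.
FOSL2 upstream region, chr2:28381586-28381686: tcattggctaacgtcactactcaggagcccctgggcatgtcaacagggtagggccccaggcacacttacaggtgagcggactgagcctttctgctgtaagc

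**Figure D4:**
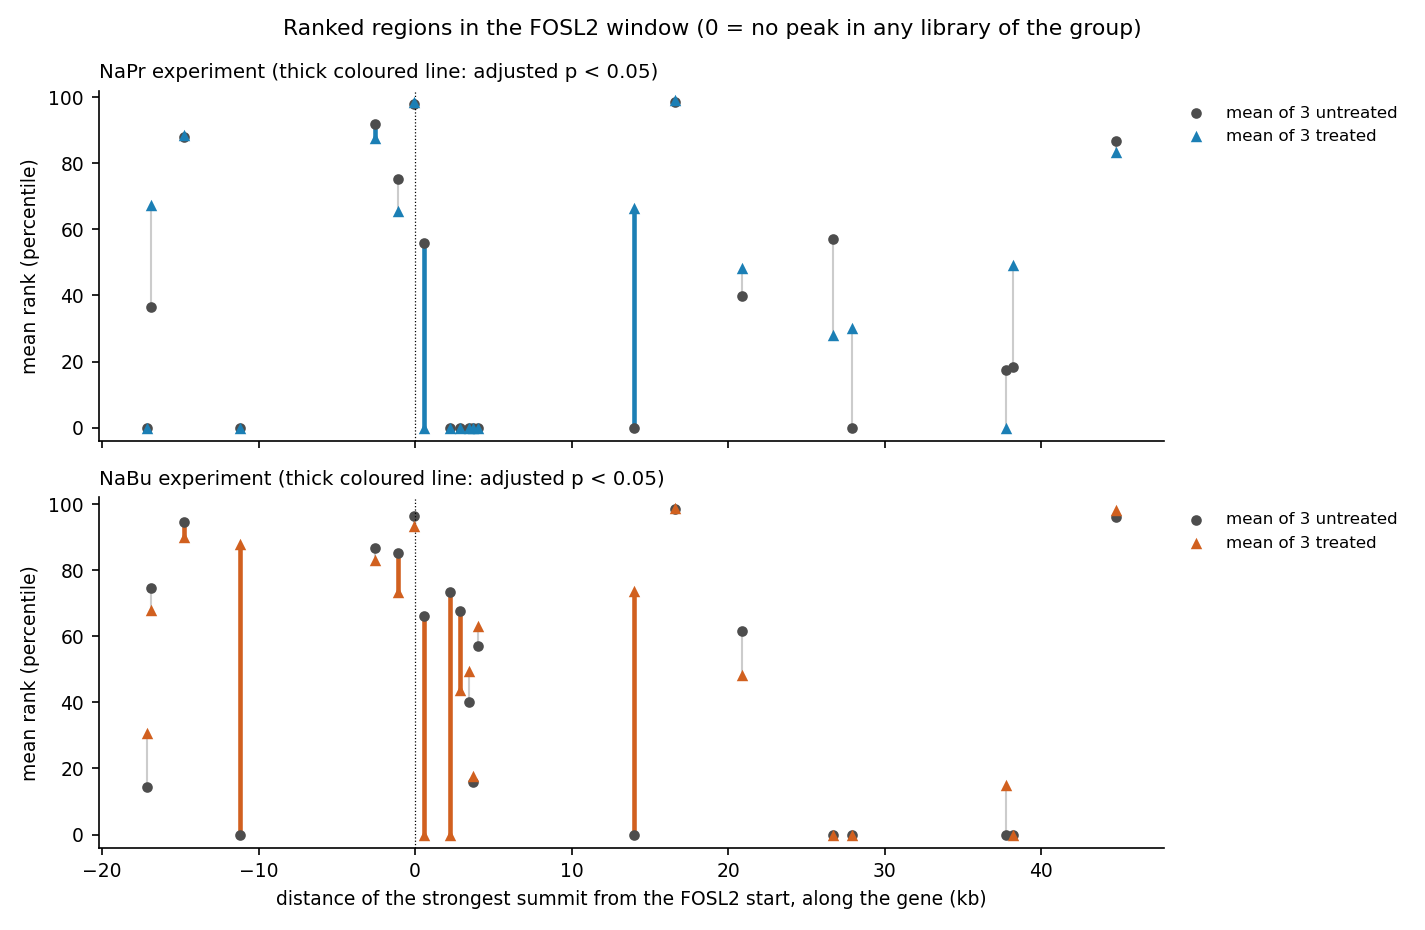
Mean rank (percentile, vertical axis) of each ranked region of the FOSL2 window against the distance of its summit from the FOSL2 start (kb, horizontal axis), with NaPr above and NaBu below; circles are means of 3 untreated and triangles means of 3 treated libraries, joined by a thick coloured line where limma's adjusted p was below 0.05. The region 11.2 kb upstream rises from 0 in the NaBu panel alone, and the regions 0.561, 2.24 and 2.86 kb downstream of the start fall there.

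A further FOSL2 region at 44.8 kb rose from 95.4, 96.4 and 96.0 to 98.0, 98.2 and 98.8 with NaBu (limma adjusted p = 0.00523), and the highest distal region of the family, at 16.6 kb in an exon of FOSL2, stayed at 98.0 to 99.3 in all 12 libraries. Regions 14.8 kb and 2.58 kb upstream were lower, the first after NaBu (−4.39 points, limma adjusted p = 0.0148) and the second after NaPr (−4.27 points, limma adjusted p = 0.0376).

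JUN, the main partner of the FOS proteins, lies on chromosome 1 (ENSG00000177606.9, chr1:58776845-58784048, minus strand). Its main promoter region (chr1:58783236-58785674), centred 2 bases from the start, had overlapping groups, at 94.2 to 96.9 in the NaPr and 95.6 to 98.0 in the NaBu experiment (changes of 0.03 and 0.86 points, limma adjusted p = 0.998 and 0.306). The JUN-type element shown above, through which JUN is known to regulate itself, lies within it. The region with the TGACTCA motif, 3.92 kb downstream of the start (chr1:58779651-58780598) and annotated as an intron of JUN, rose by 29.6 points with NaPr. Untreated libraries stood at 66.4, 62.9 and 52.7 and treated ones at 89.5, 88.3 and 92.8 (SE 3.75, limma adjusted p = 0.0174), the largest change after NaPr among regions with a peak in all 6 libraries. Its fold enrichment went from 2.16 to 2.85 in untreated libraries to 5.31 to 6.58 in treated ones, and on pileup scaled to the background the rise was 1.86 on the log2 scale, but ranked by fold enrichment the change of 22.6 points was not past the threshold (limma adjusted p = 0.0589). With NaBu the same region went from 69.9, 79.6 and 77.0 to 83.9, 83.9 and 81.3, and although the groups did not overlap the change of 7.55 points (SE 2.65) was not past the threshold (limma adjusted p = 0.0767), which it passed on pileup scaled to the background (0.35 on the log2 scale, limma adjusted p = 0.0096). One JUN region was lower after NaBu, 1.81 kb upstream in an intron of LINC01135 (chr1:58785813-58786008), from 53.8, 61.3 and 57.1 to no peak (−57.4 points, SE 5.39, limma adjusted p = 0.000946).

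JUNB, which can restrain JUN at shared targets, lies in a dense stretch of chromosome 19 (ENSG00000171223.6, chr19:12791486-12793315, plus strand) where 7 of its 16 ranked regions are promoters of neighbouring genes. Neither of its 2 promoter regions was called, and 1 had an unadjusted p below 0.05, after NaPr. The main one, 1.35 kb upstream (chr19:12789618-12790525), was below the untreated libraries in every NaPr-treated library (87.2, 89.5 and 90.4 against 81.3, 82.3 and 86.9; −5.56 points, SE 1.68, limma adjusted p = 0.0917) and overlapped with NaBu at 89.1 to 92.0. The region over the start stayed between 81.3 and 93.0 in all 12 libraries. One distal region rose after NaBu, in an intron of HOOK2 4.76 kb downstream (chr19:12796168-12796495), from no peak to 41.7, 52.7 and 53.9 (limma adjusted p = 0.00197). Of 4 regions lower after NaBu, 3 were promoters of neighbouring genes, with changes of −28.5, −22.0 and −15.2 points (limma adjusted p = 0.0168, 0.0150 and 0.0381). The other, 9.03 kb upstream, went from 63.2, 50.9 and 49.5 to a single peak at 40.1 (limma adjusted p = 0.0474), a call lost in 5 of the 6 fits that left out 1 library. After NaPr 1 region was lower, 7.61 kb upstream, from 58.4, 52.7 and 43.8 to no peak (limma adjusted p = 0.0404). Its untreated peaks had a −log10 p of 5.47 to 6.03, below the weakest peak listed in treated replicate 3 (6.53), and the call was lost without the filter (adjusted p = 0.0631) and with regions merged over the 6 libraries alone (−35.9 points, adjusted p = 0.0651).

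JUND, the JUN protein made at a steady level in most cells, was the gene whose main promoter region changed most by rank (ENSG00000130522.6, chr19:18279694-18281622, minus strand). In the NaPr experiment that region (chr19:18279973-18282725) stood at 93.2, 96.6 and 95.6 untreated and 96.1, 95.4 and 95.5 treated, with overlapping groups (0.53 points, SE 0.856, limma adjusted p = 0.739). With NaBu it fell from 82.1, 81.0 and 83.6 to 71.0, 69.4 and 63.8 (−14.2 points, SE 2.3, limma adjusted p = 0.00476), and all treated libraries were below all untreated ones. Fold enrichment in that experiment was 4.91 to 5.21 in untreated and 3.40 to 4.12 in treated libraries, below the 8.39 to 9.77 of every NaPr library. The untreated libraries of the NaBu experiment were thus below every NaPr library before any treatment, and depth and experiment cannot be told apart in that. The call was lost with regions built from summit windows (−12.1 points, adjusted p = 0.0861).

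Away from the promoter, 1 distal region of JUND, 1.99 kb downstream of the start, was lower after NaBu. So was 1 neighbour promoter, 6.58 kb downstream. The 2 distal regions of JUND that rose after NaBu lay farther out. The one 11.8 kb upstream (chr19:18292774-18293924, intergenic) went from 57.5, 56.1 and 58.6 to 82.2, 75.7 and 74.8 (20.2 points, SE 2.84, limma adjusted p = 0.00277). It was already at 82.6, 86.7 and 84.2 in untreated NaPr libraries and at 85.0, 91.9 and 91.3 after NaPr, where the test was not passed (limma adjusted p = 0.196). The other, 21.6 kb downstream in an exon of IQCN, went from no peak to 60.1, 42.6 and 46.0 (limma adjusted p = 0.00271). Among 7 JUND regions tested after NaPr limma called 0, and 3 had an unadjusted p below 0.05.

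**Figure D5:**
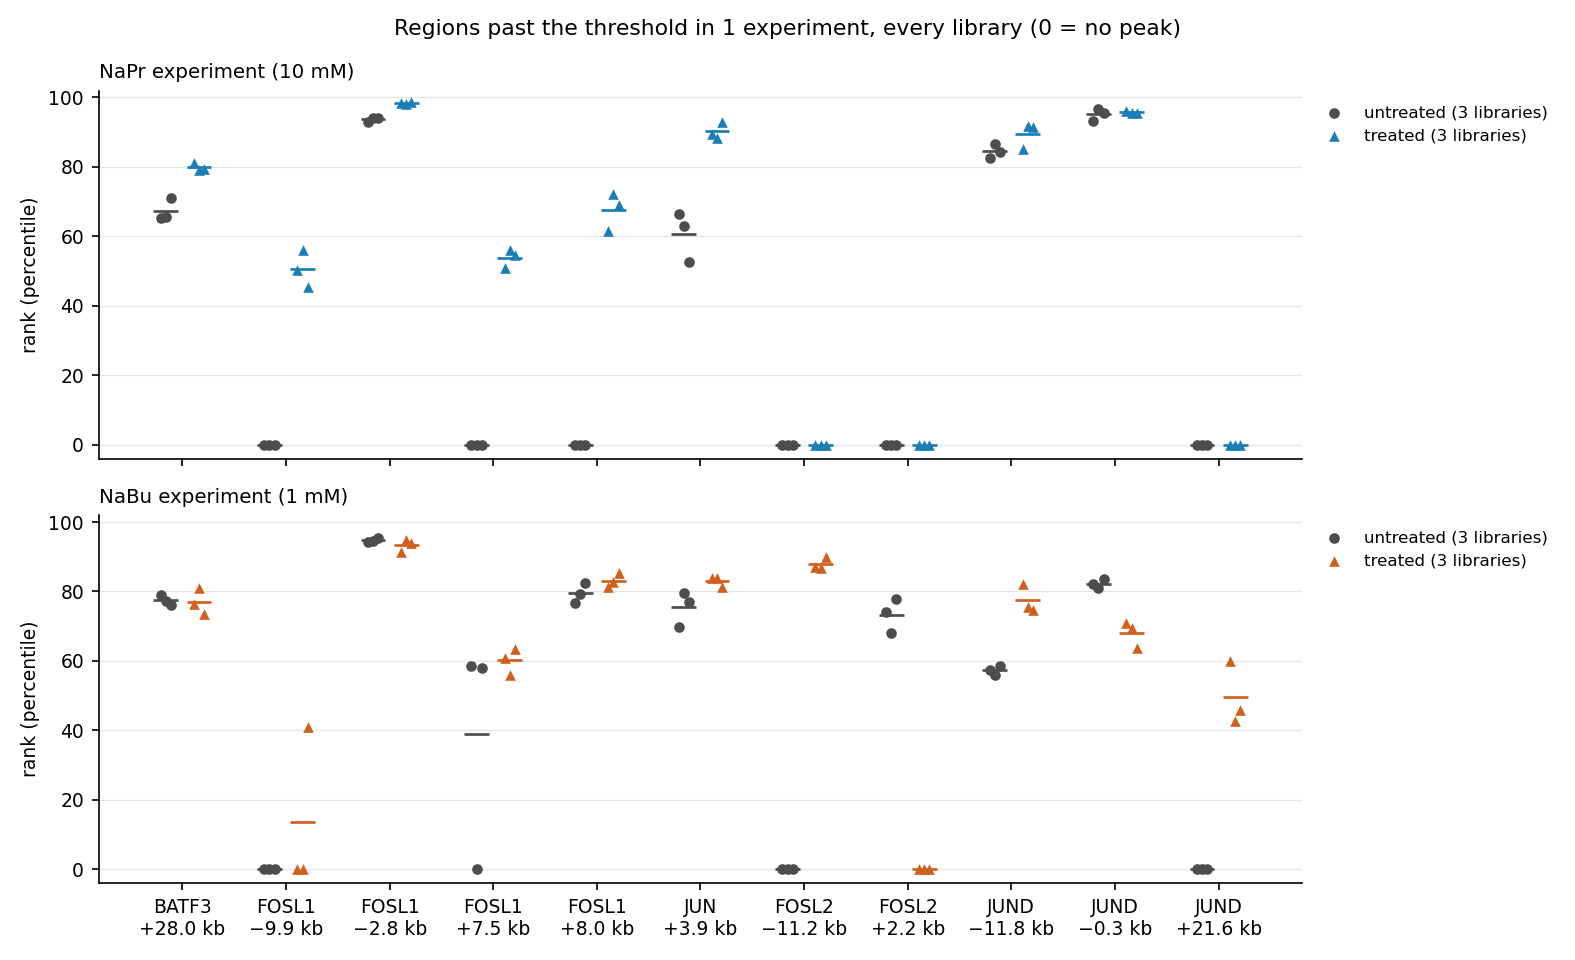
Rank (percentile, vertical axis) in every library of 11 regions past the threshold in 1 experiment, named by gene and distance from the start, with NaPr above and NaBu below; circles are untreated libraries, triangles treated libraries, short lines means of 3, and 0 means no peak. The 6 regions on the left were higher after NaPr, among them JUN at 3.92 kb. The 5 on the right were called after NaBu, among them the JUND promoter, which is lower. Other regions called in 1 experiment are not drawn.

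ATF3, a stress-induced partner of JUN that often represses, spans the longest window (ENSG00000162772.18, chr1:212565334-212620777, plus strand). Among 11 ATF3 regions tested after NaPr limma called 0, and 1 had an unadjusted p below 0.05. Its main promoter region (chr1:212607526-212609919) was at 97.1 to 98.8 in the NaPr and 97.9 to 99.4 in the NaBu experiment, with overlapping groups (limma adjusted p = 0.683 and 0.205). After NaBu 1 distal region was higher, in an intron 12.5 kb upstream of the start (chr1:212595326-212596965), from 93.7, 93.9 and 92.9 to 96.1, 97.6 and 97.4 (3.53 points, SE 0.523, limma adjusted p = 0.0033). That call was lost ranked by fold enrichment (adjusted p = 0.488) and with all 12 libraries in 1 fit (adjusted p = 0.108). Both small regions just upstream of the main promoter region were lower after NaBu. The one at 1.89 kb went from 76.2, 75.2 and 76.3 to 62.4, 62.7 and 63.8 (−12.9 points, SE 1.9, limma adjusted p = 0.00326), and after NaPr it also had every treated library below every untreated one without passing the test (−12.6 points, limma adjusted p = 0.125). The one at 1.44 kb went from 79.5, 80.1 and 79.2 to 0, 45.3 and 48.7 (−48.3 points, SE 13, limma adjusted p = 0.0343), a call lost in 4 of the 6 fits that left out 1 library. The third lower region, 41.5 kb upstream, changed from 97.3 to 98.9 untreated to 96.1 to 96.6 treated (limma adjusted p = 0.0264).

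BATF3, known for its part in dendritic cells, had the fewest regions (ENSG00000123685.9, chr1:212686417-212699840, minus strand). Its main promoter region (chr1:212698874-212700180) was open throughout, at 88.5 to 95.1 with NaPr and 95.2 to 96.6 with NaBu, with overlapping groups (limma adjusted p = 0.989 and 0.503). The intergenic region 28.0 kb downstream that holds TGACTCA (chr1:212671143-212672143) rose after NaPr, from 65.3, 65.5 and 71.0 to 81.0, 79.2 and 79.4 (12.6 points, SE 2.68, limma adjusted p = 0.0360). That call was lost ranked by fold enrichment (11.8 points, adjusted p = 0.0588) and without the filter (8.41 points, adjusted p = 0.0590). In the NaBu experiment it stood at 79.0, 77.4 and 76.0 untreated and 76.4, 81.1 and 73.5 treated, with overlapping groups (−0.46 points, SE 2.24, limma adjusted p = 0.901). The neighbouring region at 32.3 kb, which has the motif 5 bases from its summit, was lower after NaBu, from 63.4, 46.2 and 57.9 to a single peak at 38.6 (limma adjusted p = 0.0393), a call lost in 5 of the 6 fits that left out 1 library.

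The motifs were searched on both strands within 100 bases of each summit. TGAGTCA was found in 14 of the 120 ranked member regions, or 11.7%, against 15.3% of all ranked regions, and in 11 of 77 distal ones, or 14.3%, against 17.0% of all distal regions. The cyclic AMP response element occurred in 3 member regions (2.50%, against 0.386% of all), at FOSB, JUND and ATF3, and the CArG box in 3 (2.50%, against 0.913%), at FOS, FOSB and FOSL2. Of regions higher after NaPr, 2 of 9 at these genes held TGAGTCA, where 27.8% of all higher regions did. After NaBu it was in 0 of 9 higher and 4 of 20 lower member regions, against 21.9% of higher and 11.9% of lower regions genome-wide. In the 250 bases upstream of RefSeq starts, available as 8 windows for 7 of the genes, TGAGTCA was in none (4.20% of 35116 promoters), a GC box in 6 (42.6%) and a TATA box (TATAAA) in 4 (10.7%), at 33 bases before the start in FOS, 30 in FOSB, 31 in JUNB and 230 in ATF3. Both ATF3 windows lie at RefSeq starts outside the gene's main promoter region, and the one without the TATA box holds 1 of the GC boxes. These are matches of letters and not sites of binding.

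Counted per library, the 9 windows held 110, 93 and 102 peak intervals in untreated and 115, 119 and 106 in treated NaPr libraries, or 102 ± 8.50 against 113 ± 6.66 (mean ± SD, n = 3; two-sided exact permutation p = 0.2). In the NaBu experiment there were 105, 117 and 114 against 114, 117 and 118, or 112 ± 6.25 against 116 ± 2.08 (n = 3; exact permutation p = 0.5). With 3 against 3 libraries this test cannot go below 0.1. The groups overlapped in both experiments, and among the 50000 strongest intervals of each list the differences pointed the other way, at −2.67 and −5.67 intervals (exact permutation p = 0.6 and 0.1). In those the NaBu groups did not overlap, with 64, 62 and 64 untreated against 57, 58 and 58 treated.

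Genes around the family were compared by the same rule, with the lists taken from general knowledge of the pathway. Partners outside the family (11 genes, among them ATF2, MAFG and MAFK) had 3 higher and 5 lower of 93 regions after NaPr and 12 higher and 17 lower of 81 after NaBu. The kinases and the serum response factor group upstream of AP-1 (16 genes) had 4 higher and 6 lower of 108 after NaPr and 18 higher and 18 lower of 123 after NaBu. Other immediate early genes (11 genes) had 9 higher and 6 lower of 104 and, after NaBu, 15 higher and 11 lower of 91. Known AP-1 targets (15 genes) had 7 higher and 4 lower of 87 and, after NaBu, 18 higher and 19 lower of 105. These shares lie between 8.60% and 14.4% for NaPr and between 28.6% and 35.8% for NaBu, against 9.10% and 31.7% genome-wide.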

How the data were processed

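ATAC-seq was made from SW480 cells and the authors deposited 1 MACS2 narrowPeak list per library, with no pooling of replicates, which holds for each summit the fold enrichment over local background (a ratio) and the −log10 of its p and q. The submitters' processing notes name bcl2fastq 2.17.1, cutadapt 1.9.1, Bowtie2 2.3.1 and MACS2 2.1.0, and the coordinates matched GRCh38. The deposited lists hold no read counts, so total depth is unknown; the background pileup was recovered from the deposited fold and −log10 p values.

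Overlapping peaks were merged over the 12 SW480 libraries, and each region took its highest −log10 p in each library and then its percentile rank. Gene positions came from GENCODE release 44. Ranks were compared with limma 3.58.1 (two-sided, eBayes with trend, R 4.3.3) in regions with a peak in at least 2 of a comparison's 6 libraries, with Benjamini-Hochberg adjustment over all of them. The fit was tested on simulated data. Other steps used Python 3.11.15 with numpy 2.4.6, pandas 2.3.3, scipy 1.17.1 and matplotlib 3.10.9. The study tested read counts in peaks, which the lists do not give.

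Named were each gene's main promoter region, its largest called rise and fall per compound, its largest gained or lost region and every region called in both experiments; the further FOSL1, FOSL2, JUN, JUNB, JUND, FOSB, FOS and ATF3 regions given were chosen after their values were seen. From the gene lists, the called promoter region with the largest rise and fall was named per list and compound. The genes and the lists were chosen with earlier results of these data known. Alternatives covered the value ranked, list depth, filters, region building, scaling, the variance trend, all 12 libraries in 1 fit, the replicate block, each library left out, the window and the promoter distance. The 8 libraries of CT26, a mouse line, were not used here, and 1 marker gene is not reported here.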

Additional observations from a re-analysis of the deposited data

How the results depend on the processing

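As reported, 9 member regions were higher and 4 lower after NaPr and 9 higher and 20 lower after NaBu. For NaPr, ranking by fold enrichment gave 1 and 1, and dropping the filter gave 4 and 1. The 50000 strongest intervals of each list, and a peak in at least 4 of 6 libraries, each left 5 higher. One fit to all 12 libraries gave 9 lower, summit windows 7, pileup scaled to the background 0 and to the median 14. Windows of 5 kb left 2 lower and of 50 kb gave 14 higher and 8 lower. The NaPr higher and lower counts were each 0 with any 1 library left out, without both replicate 1 libraries and with the replicate block, where limma called 0 regions genome-wide and 25787 had an unadjusted p below 0.05 under the block. In 12-library fits that left out 1 library they were 10 to 14 and 5 to 8. For NaBu, lower regions numbered 13 by fold enrichment, 12 in the strongest intervals, 11 without the variance trend, 31 with summit windows and 33 on either pileup scale. Windows of 5 kb gave 4 higher and 12 lower and of 50 kb 25 and 32. Leaving out 1 library gave 9 to 12 higher and 9 to 21 lower, and in 12-library fits 7 to 10 and 16 to 21. With promoters taken as within 2 kb of a start, 2 promoter regions were lower after NaPr and 11 after NaBu, and 5 distal ones after NaBu.

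Pileup was fitted only to regions with a peak in all 6 libraries, 65178 for NaPr and 72559 for NaBu, against 124067 and 123730 by rank. Of all calls genome-wide, 55.3% were higher by rank after NaPr, 92.5% on pileup scaled to the background and 38.1% on pileup scaled to the median. For NaBu these shares were 54.2%, 45.5% and 46.0%. The median NaPr shift over the regions fitted was 0.21 (log2) on pileup scaled to the background. The difference in intervals per library was −2.67 for NaPr and −5.67 for NaBu in the strongest intervals, against 11.7 and 4.33 in whole lists, and ran from 7.33 to 15.8 and from 0.833 to 6.83 with 1 library left out. Searching whole regions, 18.3% of member regions held TGAGTCA. The replicate numbers share no stated source. For each region with a peak in all 12 libraries, the mean rank of each group of 3 was taken off. The remaining deviations of same-numbered treated and untreated libraries correlated at −0.00918 to 0.0161 for NaPr and 0.00854 to 0.0795 for NaBu. The block gave 9 higher and 19 lower after NaBu. The cause of these changes was not tested.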

Other observations

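Among the genes around AP-1, the called promoter regions with the largest changes per list were as follows. NR4A1, an immediate early nuclear receptor gene, had several promoter regions. One fell by 61.2 points after NaPr (limma adjusted p = 0.0304). Another fell by 67.8 points after NaBu and a further one rose by 19.7 points after NaBu (limma adjusted p = 0.000727 and 0.00485). The strongest NR4A1 promoter region was not called. Its untreated and treated means were 95.8 and 96.6 with NaPr, and 89.9 and 88.8 with NaBu. VEGFA, the angiogenic growth factor, had 1 promoter region lower in both experiments. That region fell by 14.8 points with NaPr and by 68.6 points with NaBu (limma adjusted p = 0.0309 and 0.000756). After NaBu no treated library had a peak there. The strongest VEGFA promoter region was not called. Its untreated and treated means were 86.2 and 88.7 with NaPr, and 94.1 and 95.4 with NaBu. CD44, which encodes the hyaluronan receptor, gained a promoter region at chr11:35214791-35215304 after NaBu (44.8 points, limma adjusted p = 0.0039). Its strongest promoter region, at chr11:35138425-35140314, was not called, with means of 92.9 untreated and 91.3 after NaBu.

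The small MAF proteins can pair with FOS proteins. MAFG had a promoter region that fell by 11.7 points after NaPr (limma adjusted p = 0.0256), and after NaBu 1 MAFK promoter region rose by 58.1 points while another fell by 27.4 points (limma adjusted p = 0.0012 and 0.0069). The strongest MAFG promoter region was not called after NaPr, with means of 90.8 both untreated and treated. The strongest MAFK promoter region was not called after NaBu, with means of 98.8 untreated and 97.9 treated. Of the kinases that act upstream, MAP2K1 (MEK1) gained a promoter region at chr15:66401592-66401914 after NaPr (55.3 points, limma adjusted p = 0.0343). The strongest MAP2K1 promoter region, at chr15:66386230-66388020, was not called, with means of 95.3 untreated and 94.2 after NaPr. MAPK3 (ERK1) had a promoter region that fell by 22.8 points after NaBu (limma adjusted p = 0.0274), and that of MAPK10 (JNK3) rose by 0.82 points (limma adjusted p = 0.0309).

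The promoter regions whose ranks over the 12 libraries, after the mean of each experiment was taken off, were most like those of FOS were SURF6 (r = 0.975) and FTH1 (r = 0.972), of 16728 promoter regions searched. Those most like JUND were TRAPPC10 (r = 0.985) and TMEM145 (r = 0.983). The libraries share depth and treatment across all regions, so these values are a description of likeness alone.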
